A study of Mus musculus with 4 samples.

Results

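Il34, Csf1 and Csf1r encode the receptor of colony-stimulating factor 1 and its ligands, and they were followed here in endothelial cells from mouse hearts. They are 3 of the 45882 gene IDs of the deposited table, matched by gene symbol, and each symbol stood on a single ID. The genes were chosen by their shared signaling role with earlier results of these same libraries known, including the level of Il34 with Smad3 loss after doxorubicin. Their levels below are therefore a description, and none of them was tested. The measurement was RNA sequencing, given as FPKM, a count of fragments scaled for the length of the transcript and the size of the library.

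The 4 groups were Smad3 KO Dox, Smad3 KO saline, WT Dox and WT saline, with 1 library each, so no difference has a replicate check and no SD or p-value is given. All mice were male. Smad3 KO mice carried the targeted Smad3tm1Par allele on a 129 background in every cell, so that loss of Smad3 was not limited to endothelium, and WT mice had intact Smad3. Smad3 relays signals of the TGF-β receptors to the genome. The Dox groups received doxorubicin, an anthracycline used against cancer, at 5 mg/kg by tail vein in 4 weekly injections starting at 7 wk of age, and the saline groups received saline in the same way. Hearts were taken 9 wk after the last injection and were digested with collagenase before the cells were selected on magnetic beads that bind CD31 (Pecam1), with a second round of selection. The labels give the age as 20 wk, somewhat later than the injection schedule adds up to. Groups follow the sample titles and the column names of the table. The genotype tag gave the opposite genotype in 2 libraries, the WT Dox library and the Smad3 KO saline library. The treatment protocol field names doxorubicin for all 4 libraries, while the treatment tag follows the titles.

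CSF1R is a receptor tyrosine kinase on the surface of macrophages and their precursors, which need its signal to survive and divide. CSF1 and IL-34 are unrelated in sequence but bind the same receptor as dimers. CSF1 is made by many cells, endothelial and stromal cells among them, as secreted and membrane-bound forms, while IL-34 is best known from neurons and from keratinocytes of the skin, where it maintains microglia and Langerhans cells. In the heart, Csf1r marks resident macrophages, which lie close to the vessels.

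The gene models of these ligands bear on what a value per gene can show. Il34 (ENSMUSG00000031750) lies on the minus strand of chromosome 8 (GRCm38 110741829 to 110805924) and has 2 protein-coding transcripts of 1709 and 1796 bases. Csf1 (ENSMUSG00000014599) lies on the minus strand of chromosome 3 (GRCm38 107741048 to 107760469), with 6 protein-coding transcripts of which the longest has 4176 bases. The long coding form of Csf1 has 552 codons and a shorter one 257. A single FPKM per gene does not separate the forms of either ligand.

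The RefSeq promoter table (GRCm38.p6) held 1 of the 3 genes, Csf1. Its sequence is shown because the genes that respond to NF-κB, an inflammatory transcription factor with a known site in the human CSF1 promoter, are set beside Csf1 below. The window is the 250 bases before the start site, chr3:107760470-107760719 on the minus strand, written 5′ to 3′ along the gene. The capitals mark a match to GGGACTT, the opening letters of a classical κB site. The match reads along the opposite strand and spans bases 151 to 145 upstream of the start site. Read the same way, the lowercase letters just before the capitals supply the rest of that site, so it stands whole in the window.

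Csf1 promoter: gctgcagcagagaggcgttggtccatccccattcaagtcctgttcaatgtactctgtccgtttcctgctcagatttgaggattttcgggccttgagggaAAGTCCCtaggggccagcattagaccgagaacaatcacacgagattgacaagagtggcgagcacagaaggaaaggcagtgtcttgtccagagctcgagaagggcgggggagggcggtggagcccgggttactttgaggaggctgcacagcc

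On either strand, GGGACTT stood in 1527 of 32851 promoter windows of this length (4.65%), counting alternative promoters of a gene separately. That share is for these opening letters alone, and windows holding the whole κB site were not counted. The Smad motif CAGAC, present in 42.2% of the windows, had no match in that of Csf1. A match is a run of letters and not a measured binding site, and the absence of one concerns these 250 bases only.

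Smad3 itself had 0.848 FPKM in Smad3 KO Dox and 1.02 FPKM in Smad3 KO saline, against 2.09 FPKM in WT Dox and 2.95 FPKM in WT saline, so both KO libraries lay below both WT libraries. Of the endothelial genes, Pecam1 had 401 to 511 FPKM over the libraries, and Cdh5, the cadherin of endothelial junctions, was lowest in Smad3 KO Dox at 168 FPKM and stood at 341 to 475 FPKM in the others. The preparations also held RNA of leukocytes: Ptprc, the pan-leukocyte antigen CD45, had 3.32 to 7.06 FPKM. The spacing of low values in the table gave an estimate of 21400000 fragments for Smad3 KO Dox and of 26100000 to 28400000 for the others. At those depths the levels of the ligands and the receptor rested on about 400 to 5692 fragments each, for which counting alone gives a relative SD of at most 5.0%. That figure covers counting error only and not differences between mice or preparations.

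Il34 showed the widest range of the 3 genes, Csf1 the narrowest, and Csf1r moved the opposite way from Il34 over the libraries. Il34 had 41.4 FPKM in Smad3 KO Dox, 22.0 FPKM in Smad3 KO saline, 10.5 FPKM in WT Dox and 18.2 FPKM in WT saline. Its level was thus highest in Smad3 KO Dox and lowest in WT Dox, with a 3.96-fold span, and the saline libraries lay between them. Csf1 had 21.5 FPKM in Smad3 KO Dox, 22.3 FPKM in Smad3 KO saline, 23.2 FPKM in WT Dox and 23.7 FPKM in WT saline. These values stood within 1.10-fold of each other as deposited. With each library scaled to the same FPKM sum, Csf1 differed from WT saline by -0.21 in WT Dox and by -0.47 in Smad3 KO saline on the log2 scale. Csf1r had 18.0 FPKM in Smad3 KO Dox, 32.3 FPKM in Smad3 KO saline, 48.3 FPKM in WT Dox and 37.3 FPKM in WT saline. It was lowest where Il34 was highest and highest where Il34 was lowest, with a span of 2.69-fold.

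**Figure D1:**
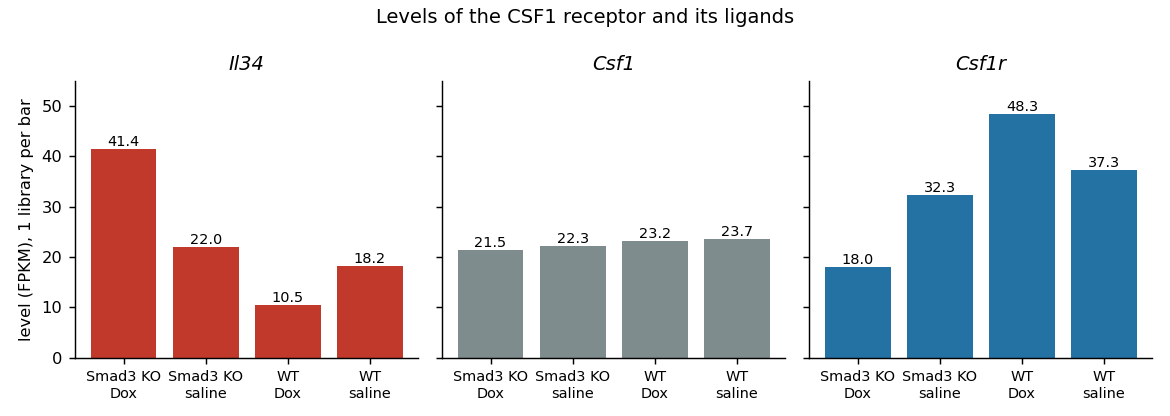
Level of each gene in FPKM (y axis, from 0) in the 4 libraries (x axis, 1 library per bar, no error bars because no group has replicates). Il34 is highest and Csf1r lowest in Smad3 KO Dox, WT Dox is the reverse, and the 4 bars of Csf1 lie between 21.5 and 23.7 FPKM.

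Differences were taken on the scale of log2(FPKM + 0.5), which understates the change of low genes, among the 12325 genes whose mean over the libraries reached 1 FPKM, a filter that all 3 genes passed. A log2 difference of 1 or more in size is called a rise or a fall (the size rule). The range of Il34 over the 4 libraries was 1.93 on this scale, and 3.38% of the genes had a range as large or larger. The range of Csf1r was 1.40, as large or larger in 8.69% of genes. The range of Csf1 was 0.14, as small or smaller in 1.84% of genes.

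The comparison of Smad3 KO Dox with WT Dox addressed what loss of Smad3 changes in hearts exposed to doxorubicin, and it held both calls of these genes. Il34, the ligand, rose to 41.4 FPKM in Smad3 KO Dox, against 10.5 FPKM in WT Dox (log2 difference 1.93). Csf1r, the receptor, fell to 18.0 FPKM in Smad3 KO Dox, against 48.3 FPKM in WT Dox (-1.40). Csf1 had 21.5 FPKM in Smad3 KO Dox and 23.2 FPKM in WT Dox (-0.11). Of all genes, 6.18% rose and 3.75% fell in this comparison (9.93% in all), and the median of all genes was 0.12. A difference as high as that of Il34 or higher was found in 99 genes (0.803%) and one as low as that of Csf1r or lower in 181 genes (1.47%). These shares place the genes among the others and are no test, since the genes were picked with this difference known.

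In this comparison the log2 differences of genes varied with transcript length. The running median of genes about as long as Il34 was 0.36, and with it removed Il34 kept a difference of 1.57. At the length of Csf1r the running median was -0.09, and the difference of Csf1r without it was -1.31. Both calls stood under this change and under every other scaling and pseudocount tried, with ranges of 1.57 to 2.00 for Il34 and -1.54 to -1.31 for Csf1r.

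The comparison of WT Dox with WT saline addressed the late effect of doxorubicin with Smad3 intact. None of the 3 genes passed the size rule there, whereas of all genes 1.03% rose and 2.69% fell (3.72% in all). Il34 had 10.5 FPKM in WT Dox and 18.2 FPKM in WT saline (-0.77), a difference as low or lower in 5.28% of genes. Csf1r had 48.3 FPKM in WT Dox and 37.3 FPKM in WT saline (0.37), as high or higher in 9.76% of genes. Csf1 had 23.2 FPKM in WT Dox and 23.7 FPKM in WT saline (-0.03), and its sign turned with median-ratio or upper-quartile scaling and with the length trend removed.

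The comparison of Smad3 KO Dox with Smad3 KO saline addressed the same late effect without Smad3, and its signs for Il34 and Csf1r were the opposite of those in WT mice. Il34 had 41.4 FPKM in Smad3 KO Dox and 22.0 FPKM in Smad3 KO saline (0.90), short of the size rule, though it passed with libraries scaled to an equal sum (1.14). Csf1r had 18.0 FPKM in Smad3 KO Dox and 32.3 FPKM in Smad3 KO saline (-0.83), also short of it. Csf1 had 21.5 FPKM in Smad3 KO Dox and 22.3 FPKM in Smad3 KO saline (-0.05), with a sign that turned under the equal sums. Of all genes 4.02% rose and 2.84% fell (6.86% in all).

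The difference between the effect of Dox in KO mice and that in WT mice was 1.67 for Il34, -1.19 for Csf1r and -0.02 for Csf1. A value as high or higher than that of Il34 occurred in 1.92% of genes, and one as low or lower than that of Csf1r in 2.12%. With 1 library per group this difference has no error and was not tested. The mean of the KO libraries differed from the mean of the WT libraries by 1.10 for Il34, -0.80 for Csf1r and -0.10 for Csf1. The genotype tag names both Dox libraries KO and both saline libraries WT. Grouping by the tag therefore set Dox against saline, with differences of 0.062 for Il34, -0.23 for Csf1r and -0.04 for Csf1. These are not a second estimate of the genotype difference. Smad3 RNA, given above, was lower in both libraries titled KO than in both titled WT. Its log2 difference was -0.94 in Smad3 KO Dox against WT Dox, short of the size rule, and -1.19 in Smad3 KO saline against WT saline. All of its levels were low, at 0.848 to 2.95 FPKM.

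The comparison of Smad3 KO saline with WT saline addressed loss of Smad3 without doxorubicin. Il34 had 22.0 FPKM in Smad3 KO saline, against 18.2 FPKM in WT saline (0.27), and -0.11 once libraries were scaled to an equal sum. Csf1r had 32.3 FPKM in Smad3 KO saline, with 37.3 FPKM in WT saline (-0.21, and -0.59 with equal sums). Csf1 had 22.3 FPKM in Smad3 KO saline, with 23.7 FPKM in WT saline (-0.08, and -0.47 with equal sums). None of them passed the size rule, whereas of all genes 1.70% rose and 3.03% fell (4.72% in all).

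**Figure D2:**
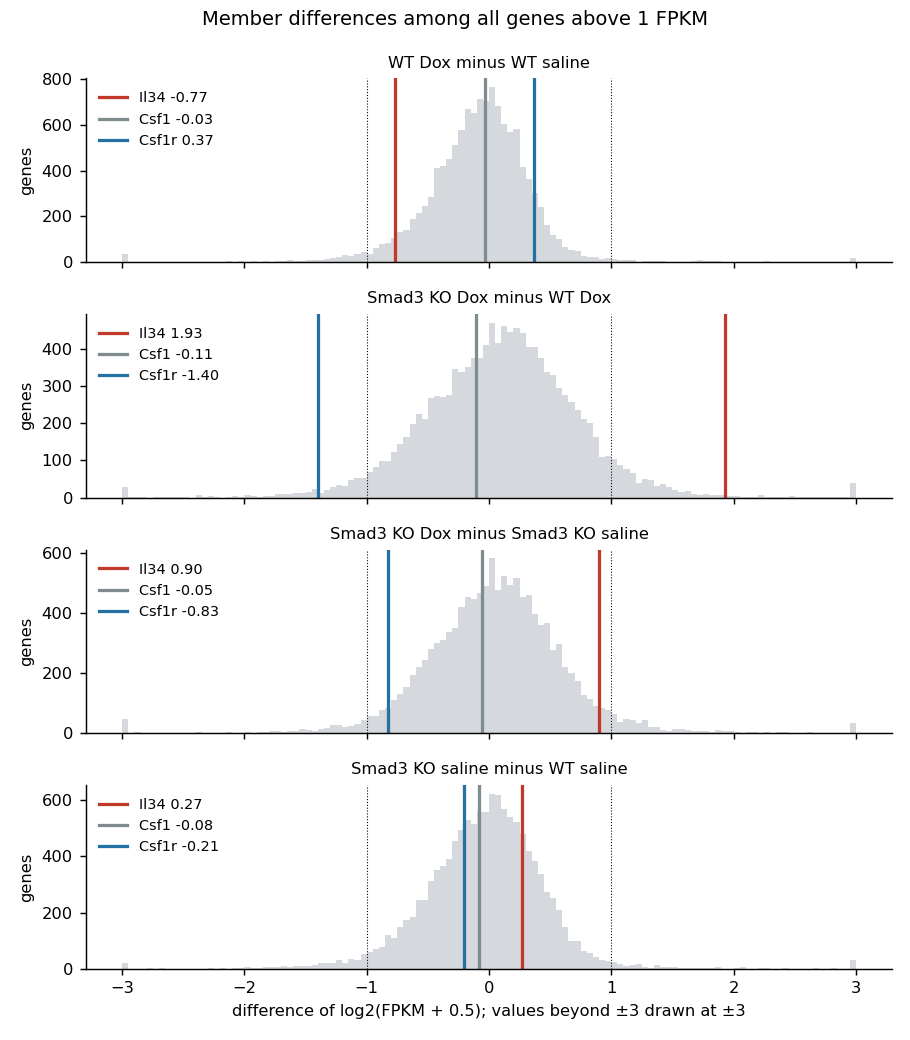
Distribution of the log2(FPKM + 0.5) differences (x axis) of the 12325 genes above the filter (y axis, number of genes), with 1 panel per comparison, colored lines for Il34, Csf1 and Csf1r, and dotted lines at the size rule of 1. Il34 (1.93) and Csf1r (-1.40) lie outside the dotted lines only for Smad3 KO Dox minus WT Dox, and Csf1 stays between -0.11 and -0.03.

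Set against each other within a library, the ligands give a ratio that does not depend on how whole libraries are scaled. The ratio of Csf1 to Il34 was 0.518 in Smad3 KO Dox, 1.01 in Smad3 KO saline, 2.21 in WT Dox and 1.30 in WT saline. Il34 thus made up 65.9% of the summed FPKM of the ligands in Smad3 KO Dox, 49.7% in Smad3 KO saline, 31.1% in WT Dox and 43.5% in WT saline. The summed ligand level was 62.9 FPKM in Smad3 KO Dox, 44.3 FPKM in Smad3 KO saline, 33.6 FPKM in WT Dox and 41.9 FPKM in WT saline. Set against the receptor, the ligand sum was 3.50 times the level of Csf1r in Smad3 KO Dox, 1.37 times in Smad3 KO saline, 0.696 times in WT Dox and 1.12 times in WT saline. The trend with transcript length was not removed from these ratios. For Smad3 KO Dox minus WT Dox its running median was 0.36 at the length of Il34, 0.02 at that of Csf1 and -0.09 at that of Csf1r. These are ratios of transcripts in a mixed preparation and say nothing of protein.

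Csf1r (ENSMUSG00000024621; GRCm38 chromosome 18, 61100598 to 61132149, plus strand) is a gene of macrophages rather than of endothelium, so its level was set beside a list of 19 macrophage genes, of which 18 passed the filter. Of these 18 genes, 16 were lowest in Smad3 KO Dox, as Csf1r was, while 32.0% of all genes were lowest there. The full order of Csf1r over the libraries was shared by 7 of the 18 and by 3.86% of all genes. In Smad3 KO Dox against WT Dox, 11 of the 18 fell and none rose, while 3.75% of all genes fell and 6.18% rose. The median of the list was -1.27, beside -1.40 for Csf1r. Lyz2, the lysozyme of myeloid cells (-2.26), F13a1, a subunit of a clotting factor (-2.22), and Cd163, a scavenger receptor (-2.07), fell the most. Cd68, a lysosomal protein of macrophages, had 7.16 FPKM in Smad3 KO Dox, 13.5 FPKM in Smad3 KO saline, 22.1 FPKM in WT Dox and 20.3 FPKM in WT saline. Adgre1, which encodes the macrophage antigen F4/80, had 3.23 FPKM in Smad3 KO Dox, 6.06 FPKM in Smad3 KO saline, 10.3 FPKM in WT Dox and 9.96 FPKM in WT saline.

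Summed over the list, macrophage genes had 302 FPKM in Smad3 KO Dox, 453 FPKM in Smad3 KO saline, 745 FPKM in WT Dox and 754 FPKM in WT saline. None of the 19 stood at the floor of the table, 0.05 FPKM, in all libraries. Measured within each library, log2 Csf1r exceeded the median of the list by 1.22 in Smad3 KO Dox, 1.32 in Smad3 KO saline, 1.01 in WT Dox and 0.81 in WT saline. The gap in Smad3 KO Dox differed from that in WT Dox by 0.21, far less than the -1.40 of Csf1r itself, and its sign turned to -0.13 when resident macrophage and monocyte genes were added and to -0.17 with the mean of the list. In bulk samples, fewer macrophages and less RNA of these genes per macrophage cannot be told apart. The pan-leukocyte gene Ptprc was at -0.62 in Smad3 KO Dox against WT Dox. What lowered Csf1r in Smad3 KO Dox was not tested. In WT Dox against WT saline the list had a median of 0.06 and no call, and Csf1r (0.37) lay above 16 of the 18 genes. Csf1r also departed from the list in Smad3 KO saline against WT saline. There the list had a median of -0.57, and Csf1r (-0.21) lay above 15 of the 18 genes.

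**Figure D3:**
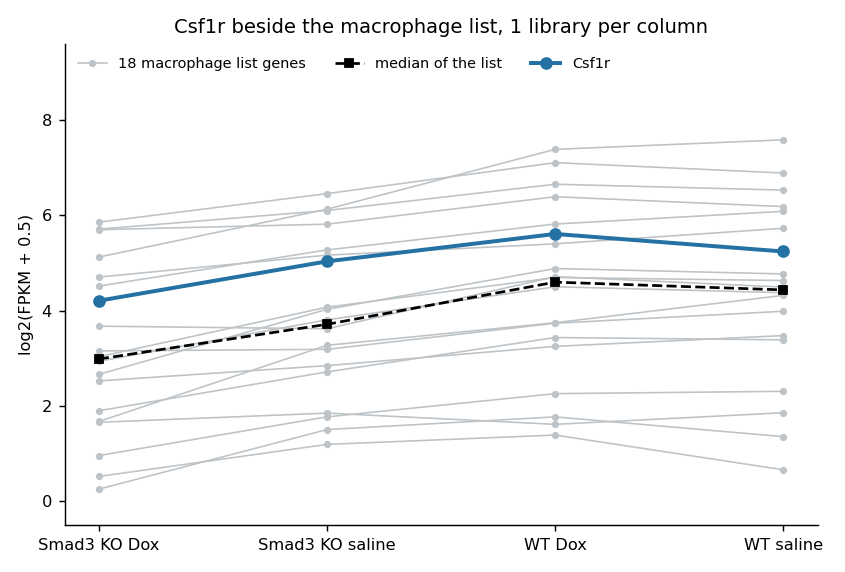
Level as log2(FPKM + 0.5) (y axis) in the 4 libraries (x axis) of Csf1r (blue), the 18 macrophage genes above the filter (grey) and their median (dashed). Csf1r runs above the median in every library, by 0.81 to 1.32, and both are lowest in Smad3 KO Dox.

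The other leukocyte lists had 3 to 6 genes above the filter. They were set in Smad3 KO Dox against WT Dox, where 6.18% of all genes rose and 3.75% fell. Of 6 resident macrophage genes 1 fell in Smad3 KO Dox against WT Dox, the folate receptor gene Folr2 (-1.99), and the median was -0.84. Of 4 monocyte genes above the filter none passed, and the median was -0.19. Of 3 neutrophil genes above the filter 2 rose and 1 fell, all at low levels. Retnlg had 6.87 FPKM in Smad3 KO Dox and 1.21 FPKM in WT Dox, S100a9 had 2.61 FPKM in Smad3 KO Dox and stood at the floor of 0.05 FPKM in WT Dox, and Mmp9 had 0.43 FPKM in Smad3 KO Dox and 2.55 FPKM in WT Dox. None of 3 dendritic cell genes passed, and of 4 lymphocyte genes 1 rose and 1 fell.

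Il34 was also set beside the lists of other cell types in Smad3 KO Dox against WT Dox, where 6.18% of all genes rose and 3.75% fell. All 5 erythroid genes above the filter rose in Smad3 KO Dox against WT Dox, with a median of 2.79 and a summed level of 28549 FPKM in Smad3 KO Dox, 10289 FPKM in Smad3 KO saline, 4384 FPKM in WT Dox and 4423 FPKM in WT saline. Of 12 cardiomyocyte genes 3 rose, and the median was 0.45. Of 10 pericyte and smooth muscle genes 2 rose, the vitronectin gene Vtn (1.12) and the potassium channel gene Kcnj8 (1.11), which mark pericytes, while Rgs5, another pericyte gene, was at -0.34, and the median was 0.02. Of 7 fibroblast genes none passed, with a median of 0.20, and of 2 mesothelial genes none passed. Among 13 pan-endothelial genes Cdh5 fell (-1.15), and the median was -0.25. Of 7 lymphatic genes 4 fell and of 3 endocardial genes 1 fell, with medians of -1.02 and -0.63, and the 1 glial gene above the filter did not pass. The order of Il34 over the libraries was shared by 8.37% of all genes and by 2 of the 5 erythroid genes. It was also shared by 1 of the 10 pericyte and smooth muscle genes, 1 of 3 neutrophil genes and 1 of 4 lymphocyte genes. None of the pan-endothelial, fibroblast or cardiomyocyte genes shared it. The part of these cell types in the level of Il34 was not tested.

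Of 15 signaling partners of the receptor, all above the filter, 3 fell and none rose in Smad3 KO Dox against WT Dox. Their median was -0.28, and of all genes 3.75% fell and 6.18% rose there. Syk, a kinase of leukocytes, had 1.77 FPKM in Smad3 KO Dox, 2.76 FPKM in Smad3 KO saline, 5.99 FPKM in WT Dox and 5.00 FPKM in WT saline. Cbl, a ubiquitin ligase that takes the activated receptor down, was at -1.21, and Tyrobp, the DAP12 adaptor of myeloid cells, at -1.12. Cbl also fell in Smad3 KO Dox against Smad3 KO saline (-1.26), the single call of the list there, while 2.84% of all genes fell. Of the widely expressed partners, the adaptor Grb2 differed by 0.16 between Smad3 KO Dox and WT Dox, and the kinase Akt1 by -0.02. No partner passed in WT Dox or in Smad3 KO saline against WT saline, with medians of 0.05 and -0.43.

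Of 6 transcription factors known to act on the Csf1r gene, 5 were in the table and all of these passed the filter. Runx1, needed for blood formation, fell to 1.24 FPKM in Smad3 KO Dox, against 4.13 FPKM in WT Dox (-1.41), the single call of the list over the 4 comparisons. Of all genes, 3.75% fell between these libraries. Spi1, which encodes the myeloid regulator PU.1, had 5.42 FPKM in Smad3 KO Dox, 3.05 FPKM in Smad3 KO saline, 4.81 FPKM in WT Dox and 4.27 FPKM in WT saline. Its order over the libraries thus differed from that of Csf1r, with Smad3 KO Dox highest. Cebpb had 26.1 FPKM in Smad3 KO Dox and 47.3 FPKM in WT Dox (-0.85), short of the size rule.

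Other proteins bind IL-34 or release CSF1 from the cell surface. Ptprz1, a receptor phosphatase that binds IL-34, stayed below the filter at 0.18 to 0.35 FPKM. Sdc1, a proteoglycan that binds it as well, had 14.8 to 15.7 FPKM in all libraries. Adam17, the protease that cuts membrane-bound CSF1, had 17.8 FPKM in Smad3 KO Dox, 26.9 FPKM in Smad3 KO saline, 26.6 FPKM in WT Dox and 34.2 FPKM in WT saline. No gene of this list of 4 passed the size rule in any comparison.

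Among the other colony-stimulating and stem cell factors, Kitl, the ligand of the receptor Kit, was the most abundant, at 99.2 FPKM in Smad3 KO Dox, 134.5 FPKM in Smad3 KO saline, 140.5 FPKM in WT Dox and 154.8 FPKM in WT saline. Flt3l had 4.62 to 6.0 FPKM. Csf2, Csf3, Il3 and Thpo had means below 1 FPKM, and Il3 stood at 0.05 FPKM in every library. None of the 6 passed in any comparison. Csf2ra, the receptor chain for CSF2 on myeloid cells, fell in Smad3 KO Dox against WT Dox (-1.18) and in Smad3 KO saline against WT saline (-1.03), as the single call of 6 receptors above the filter in each. Pdgfrb, a kinase of the same class and the neighbor of Csf1r on the chromosome, had 41.5 FPKM in Smad3 KO Dox and 45.2 FPKM in WT Dox (-0.12).

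Csf1 was set beside 11 NF-κB response genes. In WT Dox against WT saline 4 of these fell and none rose, with a median of -0.58. In Smad3 KO saline against WT saline 4 fell as well, with a median of -0.31. Of all genes, 2.69% fell in the first comparison and 3.03% in the second. Both comparisons use the single WT saline library. Selp, an adhesion molecule that slows leukocytes, had 10.8 FPKM in Smad3 KO Dox, 5.02 FPKM in Smad3 KO saline, 5.34 FPKM in WT Dox and 13.3 FPKM in WT saline. Nfkbia, the inhibitor that NF-κB induces, had 522 FPKM in Smad3 KO Dox, 350.5 FPKM in Smad3 KO saline, 284 FPKM in WT Dox and 274 FPKM in WT saline. Ccl2, a chemokine for monocytes, fell to 15.2 FPKM in Smad3 KO Dox, against 38.4 FPKM in WT Dox (-1.31). That was the single call of the list in this comparison, where its median was 0.0063 and 3.75% of all genes fell. Between the KO libraries Selp alone passed, higher in Smad3 KO Dox (1.03), while 4.02% of all genes rose, and the median of the list was -0.19. Csf1 differed by no more than 0.11 in size in any of the 4 comparisons on the deposited scale, and by -0.47 in Smad3 KO saline against WT saline with equal sums. Cell isolation can induce immediate early and stress genes, of which 11 were listed. None passed in WT Dox against WT saline, where all 11 were below 0 and the median was -0.46. The Smad3 KO saline library also had lower values than WT saline for all 11, with a median of -0.29 and no call. WT saline was thus the higher library for every gene of this list in both comparisons. The median of all genes was below 0 there too, at -0.06 and -0.01, and at -0.24 and -0.38 with equal sums. The heat shock gene Hspa1b fell in Smad3 KO Dox against Smad3 KO saline (-1.01), where 2.84% of all genes fell. It was the single call of the immediate early and stress list over the 4 comparisons.

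**Figure D4:**
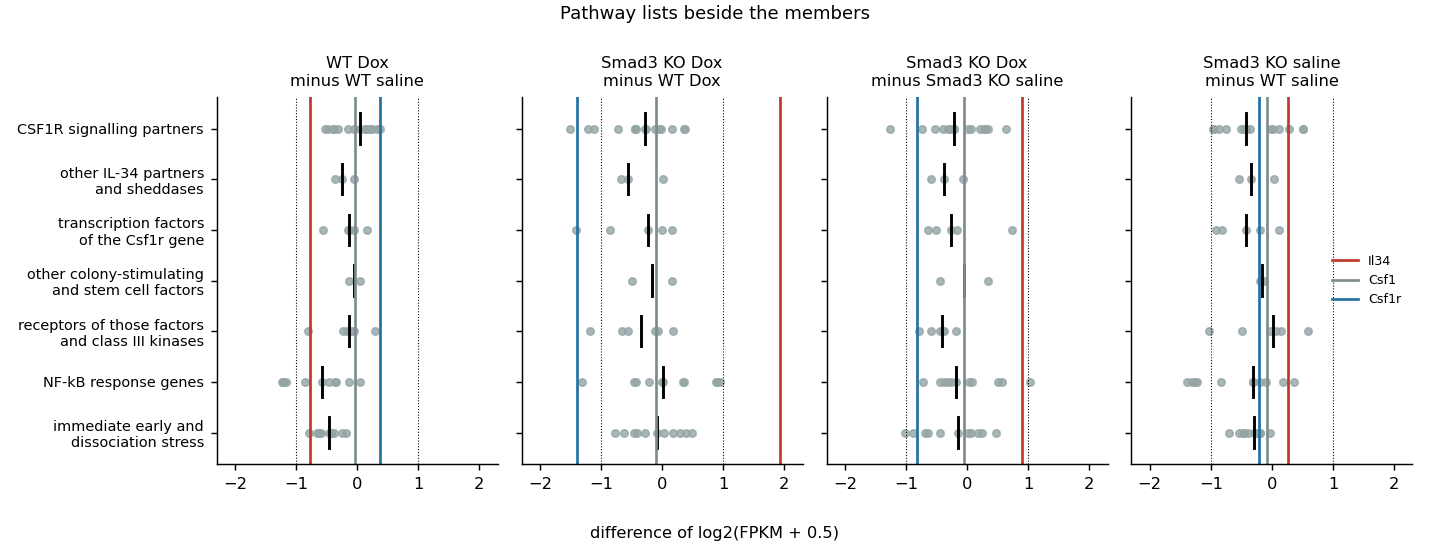
Differences of log2(FPKM + 0.5) (x axis) of the genes of 7 lists above the filter (grey points, 1 row per list, black bars for the median), with colored lines for Il34, Csf1 and Csf1r and dotted lines at the size rule of 1, in 1 panel per comparison. For Smad3 KO Dox minus WT Dox no listed gene reaches Il34 (1.93), and Syk and Runx1 lie at or below Csf1r (-1.40).

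The genes next to these loci were checked because reads of overlapping genes cannot be told apart where the use of strand is not given. Within Il34 lie the antisense genes Gm15894 and Gm15895, which share 22 and 75 exon bases with it and had at most 0.103 and 0.388 FPKM. Mtss1l, which ends 429 bases from Il34 on the other strand, had 17.2 FPKM in Smad3 KO Dox and 30.8 FPKM in WT Dox (-0.83), the opposite sign of Il34. Sf3b3, a splicing factor gene on the other side, had 18.8 FPKM in Smad3 KO Dox and 21.8 FPKM in WT Dox (-0.21). At the 3′ end of Csf1r, Hmgxb3 runs in the opposite direction and shares 873 exon bases with it, and it had 4.15 FPKM in Smad3 KO Dox and 4.45 FPKM in WT Dox (-0.09). No gene of the annotation lay within 20 kb of Csf1.

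Finally, the genes nearest in pattern were listed for each of the 3, by the Euclidean distance between log2(FPKM + 0.5) values centered on their own mean over the 4 libraries, among 7661 genes averaging 5 FPKM or more. Nearest to Il34 were Psmg1, an assembly factor of the proteasome (distance 0.26), Rapgef4, an exchange factor that responds to cyclic AMP (0.31), Ovca2 (0.31), Eef2kmt, a methyltransferase of elongation factor 2 (0.34), and Tm2d3 (0.35). Psmg1 had 14.6 FPKM in Smad3 KO Dox, 8.73 FPKM in Smad3 KO saline, 4.51 FPKM in WT Dox and 6.63 FPKM in WT saline. Only 31 genes lay within a distance of 0.5 of Il34, against 242 for Csf1r and 3974 for Csf1.

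Nearest to Csf1r were Trim65, a ubiquitin ligase (0.17), P4ha1, a collagen prolyl hydroxylase (0.18), the lysosomal sulfatase gene Arsb (0.18), the complement gene C1qa (0.20) and Laptm5, a lysosomal protein of blood cells (0.21). C1qa, itself on the macrophage list, had 57.5 FPKM in Smad3 KO Dox, 87.4 FPKM in Smad3 KO saline, 137 FPKM in WT Dox and 118 FPKM in WT saline. Nearest to Csf1 were genes with the same near-level course: Nadk, which makes NADP (0.0066), Esco1 (0.019), Tomm70a (0.024), Ap3m1 (0.024) and Myl6 (0.031). With 4 values per gene, many genes come close to any pattern, and nearness here is a description of these libraries.

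**Figure D5:**
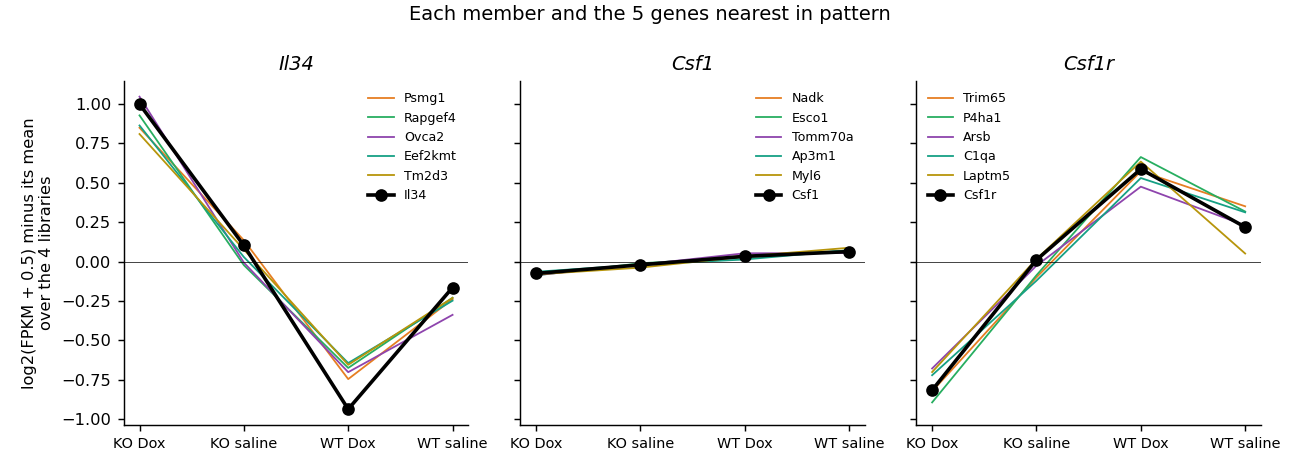
Level of each gene relative to its own mean, as log2(FPKM + 0.5) minus the mean over the 4 libraries (y axis), in the 4 libraries (x axis), for Il34, Csf1 and Csf1r (black) with the 5 genes nearest in pattern (colored). Il34 and its neighbors peak in Smad3 KO Dox and are lowest in WT Dox, Csf1r and its neighbors show the reverse, and the Csf1 panel is nearly flat.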

How the data were processed

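RNA of CD31-selected cardiac endothelial cells was sequenced in 4 libraries, 1 per group. The authors deposited FPKM per gene, and nothing else was used. CASAVA, STAR and GRCm38.p4 are credited to the submitters' processing notes. The study's methods instead give TopHat and Bowtie for alignment and Cufflinks for quantification, so which aligner made these values is unclear. Strand use and the annotation release are not given in the sources used. Lines of the 51 IDs listed more than once (121 lines) were summed, and the lowest value of the table was 0.05, to which 1 smaller value was set. No per-sample column was left unused.

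The genes and lists were chosen with earlier results of these data known. Differences of log2(FPKM + 0.5) were taken for genes averaging 1 FPKM or more and called at a size of 1. FPKM are not counts, no group has replicates, and no test was run. Named genes were the 3 genes, their neighbors, members of 22 lists (183 of 184 symbols were in the table; genes past the size rule were named first, up to 3 per list), label checks and the 5 nearest in pattern. Fragment numbers were estimated from the steps of low values in single-transcript genes (174 to 265 values per library). Gene positions and transcript lengths came from GENCODE vM21 (GRCm38), promoter sequence from RefSeq. The code for the calls and the depth estimate was checked on simulated data. These held counting noise only and planted changes larger than the size rule. They do not show how reliable a call between single libraries is. Alternatives were another pseudocount, scaling, filter or size rule, the highest line of an ID, a running median over transcript length (window of 501 genes) and grouping by tag. Python 3.11.15 with pandas 2.3.3 and numpy 2.4.6 was used.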

Additional observations from a re-analysis of the deposited data

Results flagged for a closer look

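For Il34 the Dox library lay above the saline library in Smad3 KO mice (0.90 on the log2 scale) and below it in WT mice (-0.77), so that the KO difference of the doxorubicin difference was 1.67. For Csf1r the signs were the reverse (-0.83 in Smad3 KO mice and 0.37 in WT mice), a difference of -1.19. Both were singled out because the libraries of the genotypes moved in opposite directions. The difference was not tested, since each group holds 1 library.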

How the results depend on the processing

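The calls of Il34 (1.57 to 2.00) and Csf1r (-1.54 to -1.31) in Smad3 KO Dox against WT Dox stood under all 9 alternatives of pseudocount, scaling, line choice and length trend. With a size rule of 2 neither was called (1.93 for Il34 and -1.40 for Csf1r as deposited). With sums of 1000000 per library, Il34 passed in Smad3 KO Dox over Smad3 KO saline (1.14, and 1.01 without mitochondrial and globin genes) and had -0.11 in Smad3 KO saline against WT saline, the KO difference of the doxorubicin difference of Csf1r was -0.78, and Csf1 had 0.19 (0.054 without those genes) in Smad3 KO Dox against Smad3 KO saline, with 0.40 as its KO difference of the doxorubicin difference (0.16 without them). Csf1 had 0.043 (median-ratio scaling), 0.018 (upper-quartile scaling) and 0.039 (length trend removed) in WT Dox against WT saline. In Smad3 KO saline against WT saline, equal sums gave -0.47 for Csf1 and -0.59 for Csf1r (-0.29 and -0.42 without mitochondrial and globin genes). Grouped by the genotype tag, which sets both Dox libraries against both saline libraries, the mean of Il34 differed by 0.062. The gap of Csf1r to the macrophage list was -0.13 with resident macrophage and monocyte genes added and -0.17 with the mean.

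Over all genes, 459 were called in WT Dox minus WT saline, 1224 in Smad3 KO Dox minus WT Dox, 845 in Smad3 KO Dox minus Smad3 KO saline and 582 in Smad3 KO saline minus WT saline. They became 814, 2044, 1662 and 992 with no filter, 164, 632, 371 and 252 with a mean of at least 5 FPKM, and 86, 154, 142 and 109 with a size rule of 2. The first became 690 with only the lowest values replaced and 741 with equal sums, and the last 1406 with equal sums and 982 without mitochondrial and globin genes. Smad3 KO Dox minus WT Dox split into 762 higher and 462 lower, against 525 and 676 with median-ratio scaling, 568 and 624 with upper-quartile scaling and 496 and 499 with the length trend removed. With equal sums the split was 111 and 630, 943 and 480, 1009 and 247, and 130 and 1276 over the comparisons, and the median of all genes was -0.24, 0.16, 0.29 and -0.38, from -0.06, 0.12, 0.05 and -0.01. With median-ratio scaling it was 401 and 445 in Smad3 KO Dox minus Smad3 KO saline. Without mitochondrial and globin genes it was 755 and 328 there and 171 and 811 in Smad3 KO saline minus WT saline. No paired analysis was possible because each group holds 1 library, and no replicate could be left out. The lowest level, that of Il34 in WT Dox, rested on about 400 fragments.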
